A study of Homo sapiens with 30 samples.

Results

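Transcripts of 10 MAGE cancer-testis genes were followed through 30 poly(A)-selected RNA-seq libraries of human cell lines. The genes, MAGEA1, MAGEA3, MAGEA4, MAGEA6, MAGEA10, MAGEA12, MAGEB1, MAGEB2, MAGEC1 and MAGEC2, were taken by name and found by Ensembl identifier, and all 10 were among the 60664 genes of the count tables. The study asked how loss of DNA methylation, of the loop-forming protein CTCF and of nuclear speckles changes gene expression. Wild-type HCT116 cells, a colorectal carcinoma line, and wild-type K562 cells, a chronic myeloid leukemia line, were given the DNMT1 inhibitor DNMT1i at 10 µM or 0.1% DMSO for 3 days. HT-CTCF cells are HCT116 cells in which both copies of CTCF carry a HaloTag, so that the small molecule HaloPROTAC3 sends CTCF protein for degradation. They received DNMT1i at 10 µM for 1 day, or 0.1% DMSO, each with HaloPROTAC3 or without it. In the study's methods, HaloPROTAC3 was started some hours before DNMT1i or DMSO and then kept on alongside. K562dTAG cells are K562 cells in which the speckle proteins SON and SRRM2 carry a degron tag, and they received dTAG-13 at 500 nM or 0.1% DMSO for 6 hr. Both knock-in lines derive from selected single-cell clones, so each stands for its clone rather than for its parent line as a whole. Each of the 10 groups held 3 libraries from separate cultures.

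MAGE genes encode proteins that share a MAGE homology domain, through which many of them bind RING-type E3 ubiquitin ligases and steer them to targets. Type I MAGE genes, to which all 10 belong, lie on the X chromosome, are normally expressed in male germ cells and are silent in most other adult tissues, where their CpG-containing promoters are methylated. Many tumors express them again, and peptides of their proteins shown on HLA molecules can be recognized by T cells, which is how MAGEA1 was found. Type II MAGE genes are expressed widely and are not confined to the germ line.

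The 10 genes fell into 3 parts of the X chromosome in hg38. MAGEB2 (30215563 to 30220089) and MAGEB1 (30246289 to 30252040) lay on the short arm, MAGEC1 (141903894 to 141909374) and MAGEC2 (142202342 to 142205290) toward the end of the long arm. The MAGEA genes followed distal to them, from MAGEA4 (151912495 to 151925171) through MAGEA10 (152133310 to 152138578), MAGEA3 (152698767 to 152702347), MAGEA12 (152733757 to 152737669) and MAGEA6 (152766136 to 152769747) to MAGEA1 (153179284 to 153183880).

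RefSeq promoters (GRCh38.p14, 250 bases before to 50 after an annotated start) were at hand for 8 of the 10 genes, with 14 starts in all. They held between 1 and 21 CpG dinucleotides, with a median of 14.5 against 14 over all 35116 promoters of the table. The 4 below belong to genes whose silence or expression the results turn on, with every CpG in capitals. MAGEB2 was expressed in every group, and MAGEB1, its neighbor on the short arm, was nearly silent in HCT116 cells without DNMT1i. MAGEA4 is shown at the second of its 5 starts (chrX:151912639-151912938, plus strand), whose first exon held most counts of the gene's 5′ bins.
MAGEB2, chrX:30215313-30215612, plus strand, 21 CpGs: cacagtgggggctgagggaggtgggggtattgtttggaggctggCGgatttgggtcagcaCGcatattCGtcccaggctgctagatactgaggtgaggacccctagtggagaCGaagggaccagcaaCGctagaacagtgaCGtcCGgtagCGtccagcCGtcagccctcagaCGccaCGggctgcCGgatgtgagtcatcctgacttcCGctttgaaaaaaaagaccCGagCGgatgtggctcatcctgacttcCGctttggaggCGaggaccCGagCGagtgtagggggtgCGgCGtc
MAGEB1, chrX:30246896-30247195, plus strand, 18 CpGs: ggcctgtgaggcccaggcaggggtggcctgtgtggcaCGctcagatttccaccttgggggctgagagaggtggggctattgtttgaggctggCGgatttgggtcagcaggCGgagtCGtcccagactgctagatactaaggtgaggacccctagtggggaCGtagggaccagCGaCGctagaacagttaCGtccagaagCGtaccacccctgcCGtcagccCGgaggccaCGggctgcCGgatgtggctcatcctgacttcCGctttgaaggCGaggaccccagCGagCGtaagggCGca
MAGEA4, 11 CpGs: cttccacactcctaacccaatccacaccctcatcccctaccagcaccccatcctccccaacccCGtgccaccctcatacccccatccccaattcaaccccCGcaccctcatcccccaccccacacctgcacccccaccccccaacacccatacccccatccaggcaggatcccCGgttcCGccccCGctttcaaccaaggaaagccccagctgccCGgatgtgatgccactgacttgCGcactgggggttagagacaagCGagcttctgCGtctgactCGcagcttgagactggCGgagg
MAGEA3, chrX:152698544-152698843, plus strand, 19 CpGs: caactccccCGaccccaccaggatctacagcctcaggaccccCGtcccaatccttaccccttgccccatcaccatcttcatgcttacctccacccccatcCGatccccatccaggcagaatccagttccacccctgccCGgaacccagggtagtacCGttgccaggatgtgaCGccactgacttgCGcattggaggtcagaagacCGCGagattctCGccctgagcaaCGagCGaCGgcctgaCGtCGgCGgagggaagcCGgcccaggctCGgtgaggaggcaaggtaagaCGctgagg

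The MAGEA3 promoter was identical over its 300 bases to that of MAGEA6 (chrX:152769640-152769939, minus strand). MAGE promoters are known to depend on ETS family factors, whose sites hold a GGAA or GGAT core. The GGAA form CCGGAA, searched on both strands, was present in 2 of the 14 promoters, those of MAGEA3 and MAGEA6, and in 17.2% of all promoters in the table. The GC box GGGCGG, likewise on both strands, was present in 6 of 14 and in 45.0% of all. Reading the sequences side by side showed a further shared element, CCGGATGTG, which does not match CCGGAA but holds a GGAT core. On both strands it was present in 11 of the 14 promoters, from 6 of the 8 genes, and in 0.339% of the 35116 promoters, which include these. The 11 are not separate cases: they include every listed MAGEA4 start, and both MAGEA12 starts share a single site. With any base at the second position (CNGGATGTG), it was present in 13 of 14 promoters, from all 8 genes, and in 1.35% of the table. Both searches were chosen after the sequences had been seen, and a match is not evidence of a bound site. The element is in capitals in these 40-base windows, which were cut around its matches and so hold it by choice.
MAGEB2, chrX:30215483-30215522: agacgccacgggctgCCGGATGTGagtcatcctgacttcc
MAGEB1, chrX:30247118-30247157: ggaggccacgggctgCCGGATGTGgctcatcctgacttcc
MAGEC1, chrX:141903833-141903872: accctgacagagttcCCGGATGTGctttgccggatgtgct
MAGEC2, chrX:142205274-142205313, minus strand: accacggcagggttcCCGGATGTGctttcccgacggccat
MAGEA4, chrX:151912838-151912877: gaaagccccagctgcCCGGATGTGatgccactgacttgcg
MAGEA12, chrX:152733728-152733767: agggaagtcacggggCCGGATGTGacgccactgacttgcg
MAGEA3, chrX:152698691-152698730: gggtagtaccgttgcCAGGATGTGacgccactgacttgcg

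MAGEA3 and MAGEA6 had CAGGATGTG in place of the CCGGATGTG of the other 6 genes, and so no CpG inside the element. MAGEC1 carried it 2 times, with starts at 46 and at 32 bases before the gene start (−46 and −32).

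Read depth differed between the lines. The counts assigned to genes ranged from 17074791 to 21228534 in the 6 wild-type HCT116 libraries, from 16173008 to 20924381 in the 12 K562 and K562dTAG libraries and from 4243092 to 9407430 in the 12 HT-CTCF libraries. Levels are given as counts per 1000000 gene-assigned counts (CPM), and 3 counts in a library correspond to between 0.141 and 0.707 CPM. The summed CPM of 6 erythroid markers was 397.1 to 536.7 in K562 and K562dTAG libraries and 1.59 to 10.6 in HCT116 and HT-CTCF libraries. The sum of 6 epithelial markers was 3069 to 4490 in HCT116 and HT-CTCF libraries and 431.7 to 1086 in K562 and K562dTAG libraries, and its member CDX1 had a median of 0 in both lines. Because HTSeq dropped reads that fit more than 1 place, near-identical genes lose reads. Of the 50-base windows of MAGEA3 transcripts, 55.8% also occurred in another gene, most of them in MAGEA6, and of those of MAGEA6 53.7%. The share was 15.7% for MAGEA10, 13.7% for MAGEA12 and between 0 and 2.31% for the other 6 genes, so levels of MAGEA3 and MAGEA6 are uncertain.

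**Figure D1:**
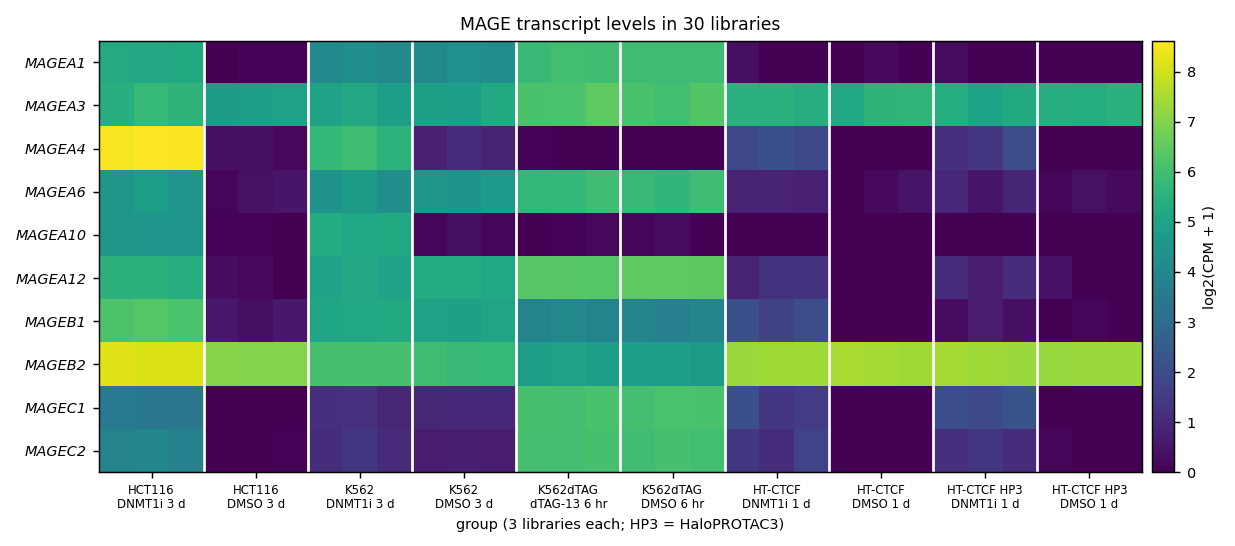
Levels of the 10 genes (rows) in 30 libraries (columns, 3 per group), as log2(CPM + 1) by color. MAGEB2 and MAGEA3 are above 0 in every library, while MAGEA10 is above 20 CPM only in the wild-type cells given DNMT1i, where its group means are 36.5 CPM in K562 and 22.1 CPM in HCT116.

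In wild-type HCT116 cells, all 10 genes were higher after 3 days of DNMT1i (adjusted p from edgeR's quasi-likelihood test below 0.05), against 33.8% of the 15885 genes tested that were higher in this comparison. The median log2 fold change of the 10 was 8.55, beside 0.02 over all genes tested. Genes silent with DMSO pass the filter on low counts only through the DNMT1i libraries, here and in the lists further on, so such counts and medians are descriptions. Their summed level was 931.1, 964.0 and 924.3 CPM with DNMT1i, against 158.9, 157.3 and 157.8 CPM with DMSO. In DMSO that sum came almost wholly from MAGEB2 and MAGEA3.

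MAGEA4, whose protein is a target of T cell therapies, had 362.5, 391.0 and 377.0 CPM in the DNMT1i libraries, against 0.288, 0.268 and 0.169 CPM in the DMSO libraries. No library of either group came near the other, and the ratio of the means was 1559 (log2 fold change 10.46 ± 0.14 SE, adjusted p = 2.86e-21). MAGEB1 had 73.4, 79.6 and 70.9 CPM with DNMT1i, against 0.519, 0.268 and 0.507 CPM with DMSO (log2 fold change 7.32 ± 0.16, adjusted p = 1.89e-18). MAGEA1, the founding MAGE antigen, had 37.1, 35.4 and 36.3 CPM with DNMT1i and 0, 0.054 and 0.056 CPM with DMSO, where only 2 reads were counted in 3 libraries. With so few reads the ratio is 973 with a 95% exact counting interval of 269 to 8041.

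MAGEA12 reached 44.1 ± 2.21 CPM with DNMT1i, against 0.130 ± 0.118 CPM with DMSO (SD, n = 3 each). MAGEA6, whose protein activates the ligase TRIM28, reached 23.4 ± 2.75 CPM, against 0.296 ± 0.169 CPM. MAGEA10 was at 22.7, 21.4 and 22.3 CPM with DNMT1i, against 2 reads in the 3 DMSO libraries, a ratio of 594 (interval 164 to 4907). The MAGEC genes were the lowest of the induced genes. MAGEC2, whose protein also binds TRIM28, had 13.4, 14.6 and 12.8 CPM with DNMT1i and a single read over the 3 DMSO libraries. MAGEC1, a gene with a long repeat-bearing coding exon, had 10.4, 9.84 and 9.62 CPM with DNMT1i and no read in DMSO, which makes it at least 178-fold higher when 3 counts over the group are taken as the floor.

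The other pair was already expressed in DMSO. MAGEB2 had 301.3, 287.1 and 284.7 CPM with DNMT1i, against 131.7, 129.0 and 127.2 CPM with DMSO, and rose 2.25-fold (log2 fold change 1.07 ± 0.07, adjusted p = 1.69e-10). MAGEA3, whose protein with TRIM28 directs AMPK for degradation, had 42.8, 53.0 and 48.0 CPM with DNMT1i, against 26.1, 27.1 and 29.4 CPM with DMSO (1.74-fold, log2 fold change 0.69 ± 0.09, adjusted p = 1.36e-06). Neither pair of groups overlapped.

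Levels of different genes were compared per length, in reads per kilobase of annotated exon at the CPM scale (RPKM). With DNMT1i, MAGEB2 was at 181.1 ± 5.6 RPKM and MAGEA4 at 111.8 ± 4.23 RPKM. MAGEB1 followed at 39.2 RPKM, MAGEA3 at 27.0, MAGEA12 at 22.8, MAGEA1 at 21.2, MAGEA6 at 12.6, MAGEA10 at 9.11, MAGEC2 at 6.82 and MAGEC1 at 2.34 RPKM. Of the neighbors in this order, only the ranges of MAGEA12 and MAGEA1 overlapped. The order rests on annotated exon length, used or not. The 3370 bases of MAGEA4 include alternative 5′ exons (bins 5 to 18 below) that held 22 of its 40272 bin counts here. Its RPKM is thus too low for the transcripts present, and its place below MAGEB2 is uncertain. MAGEA3 and MAGEA6 lose shared reads, so their places are uncertain too. With DMSO, MAGEB2 was at 80.4 RPKM and MAGEA3 at 15.5 RPKM, and the highest of the other 8 was MAGEB1 at 0.226 RPKM.

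In wild-type K562 cells 2 of the 10 genes were higher after 3 days of DNMT1i, against 6.47% of the 13726 genes tested. MAGEA10, 1 of the 2, passed the filter on low counts only through the DNMT1i libraries. The count is thus a description and is not set against that share. MAGEA10 had 38.2, 34.9 and 36.3 CPM with DNMT1i, against 0.096, 0.234 and 0.120 CPM with DMSO, a 243-fold ratio of the means (log2 fold change 7.86 ± 0.20, adjusted p = 3.06e-09). MAGEA4 had 51.9, 59.9 and 46.9 CPM with DNMT1i, against 0.717, 1.17 and 0.783 CPM with DMSO (log2 fold change 5.86 ± 0.18, adjusted p = 1.03e-08). For both genes the lowest DNMT1i library was far above the highest DMSO library.

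The other 8 genes did not pass the test. Of these, 6 were already expressed, MAGEB2 (67.7 ± 0.545 CPM with DNMT1i, 55.9 ± 3.53 with DMSO), MAGEB1 (34.8 ± 1.58 and 30.3 ± 1.20), MAGEA12 (32.0 ± 3.14 and 36.9 ± 2.47), MAGEA3 (30.7 ± 4.42 and 30.5 ± 5.35), MAGEA6 (21.4 ± 3.16 and 22.8 ± 1.73) and MAGEA1 (16.7 ± 1.62 and 17.8 ± 1.44). MAGEB2 had a log2 fold change of 0.24 ± 0.08 (adjusted p = 0.125) and MAGEA12 one of −0.25 ± 0.10 (adjusted p = 0.191). Without the third DMSO replicate of K562, MAGEB2 (adjusted p = 0.0371), MAGEA12 (0.0354) and MAGEC2 (0.0484) passed. MAGEC2 had 1.18, 1.66 and 1.02 CPM with DNMT1i, against 0.621, 0.645 and 0.602 CPM with DMSO, and its log2 fold change of 0.98 ± 0.29 had an adjusted p of 0.063. A fit of all 12 wild-type libraries, which share 1 estimate of the spread, gave it an adjusted p of 0.0296, and over all alternatives that value ran from 0.0296 to 0.26. MAGEC1 was at 1.18 ± 0.237 CPM with DNMT1i and 0.956 ± 0.045 CPM with DMSO.

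**Figure D2:**
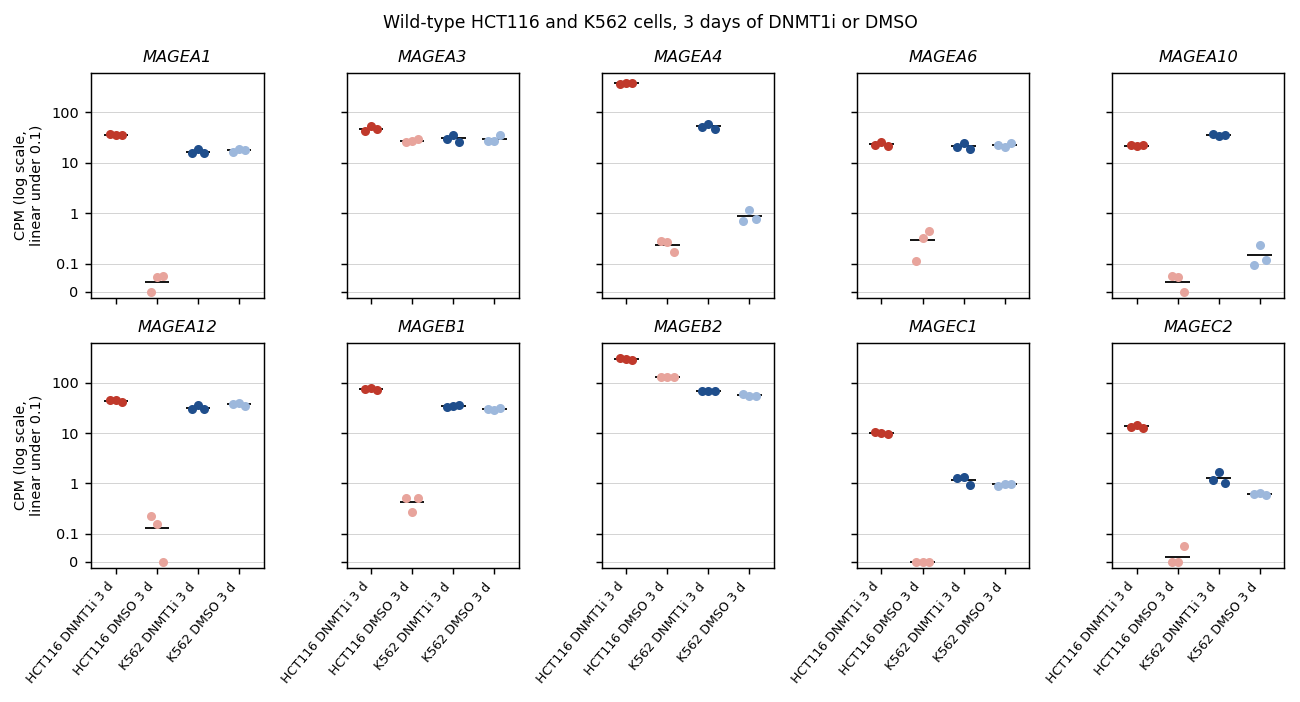
CPM of each gene (1 panel each, log axis that is linear below 0.1) in wild-type HCT116 and K562 cells after 3 days; points are libraries and bars are means of 3. All 10 genes separate by treatment in HCT116, whereas in K562 MAGEA4 (52.9 against 0.891 CPM) and MAGEA10 (36.5 against 0.150 CPM) show wide gaps.

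The DNMT1i response of the lines differed for 9 of the 10 genes, against 29.8% of the 17237 genes tested for a difference in either direction, and all 9 responded more in HCT116. The difference of log2 responses, HCT116 minus K562, was 4.59 ± 0.35 for MAGEA4 (adjusted p = 8.1e-09), though MAGEA4 rose in both lines. It was 0.82 ± 0.11 for MAGEB2 and 0.72 ± 0.18 for MAGEA3 (adjusted p = 1.06e-05 and 0.0047). MAGEA10 had a difference of 1.01 ± 0.76 that did not pass (adjusted p = 0.433), and its DNMT1i level was 22.1 ± 0.681 CPM in HCT116 and 36.5 ± 1.66 CPM in K562.

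The lines also differed before treatment. In DMSO, 8 of the 10 genes differed between the lines, against 76.5% of all genes tested, so that a difference here is common. MAGEB2 was higher in HCT116, with 129.3 ± 2.25 CPM against 55.9 ± 3.53 CPM in K562 (log2 difference 1.23 ± 0.08, adjusted p = 1.57e-11). MAGEA1, MAGEA4, MAGEA6, MAGEA12, MAGEB1, MAGEC1 and MAGEC2 were lower in HCT116. MAGEA12 for example was at 0.130 ± 0.118 CPM in HCT116 and 36.9 ± 2.47 CPM in K562 (adjusted p = 8.82e-17). MAGEA3, at 27.5 ± 1.68 CPM in HCT116 and 30.5 ± 5.35 CPM in K562, had overlapping ranges (adjusted p = 0.354). MAGEA10 was near 0 in both, with 2 reads in 3 HCT116 libraries and 8 in 3 K562 libraries (adjusted p = 0.0701).

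Exon bins, the segments into which the authors cut each gene's exons, show where along a gene the reads lay; a read that spans several bins is counted in each. MAGEA4 has many alternative 5′ exons. In HCT116 cells given DNMT1i, bins 1 to 4 (151912495 to 151912969) held 493 counts over 3 libraries and the alternative bins 5 to 18 held 22, out of 40272 bin counts. In K562 cells given DNMT1i the same parts held 60 and 2 of 5532. Counts of 5′ exons thus lay mostly by the first 2 RefSeq starts in both lines. The other 3 starts, whose promoters hold the CCGGATGTG element too, had few. In MAGEB1, bin 2, which begins at the start whose promoter is printed above, held 230 counts in HCT116 given DNMT1i, and bin 1 held 2.

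In HCT116, the share of MAGEA3 bin counts that lay in the 5′ exons differed between DNMT1i and DMSO. Bins 1 to 4, its 5′ exons, held 21.9%, 28.6% and 28.8% of the gene's bin counts in the DNMT1i libraries, against 20.8%, 13.9% and 18.9% in the DMSO libraries. The counts there were 1059 with DNMT1i and 357 with DMSO. In K562 the share was 30.4% with DNMT1i and 35.4% with DMSO over 3 libraries each. MAGEA6 had 20 of 1770 bin counts (1.13%) in its 5′ bins 5 to 10 in HCT116 given DNMT1i, against 19 of 33 with DMSO. Its added counts there were assigned to the other bins. In K562, where MAGEA6 was expressed with DMSO, these 5′ bins held 8 of 1548 with DNMT1i and 12 of 1604 with DMSO. Reads that fit both genes were left out of the counts of both. Whether reads of MAGEA6 were counted in the 5′ bins of MAGEA3 was not tested, so the shares of both genes are uncertain. No test was run on these shares.

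**Figure D3:**
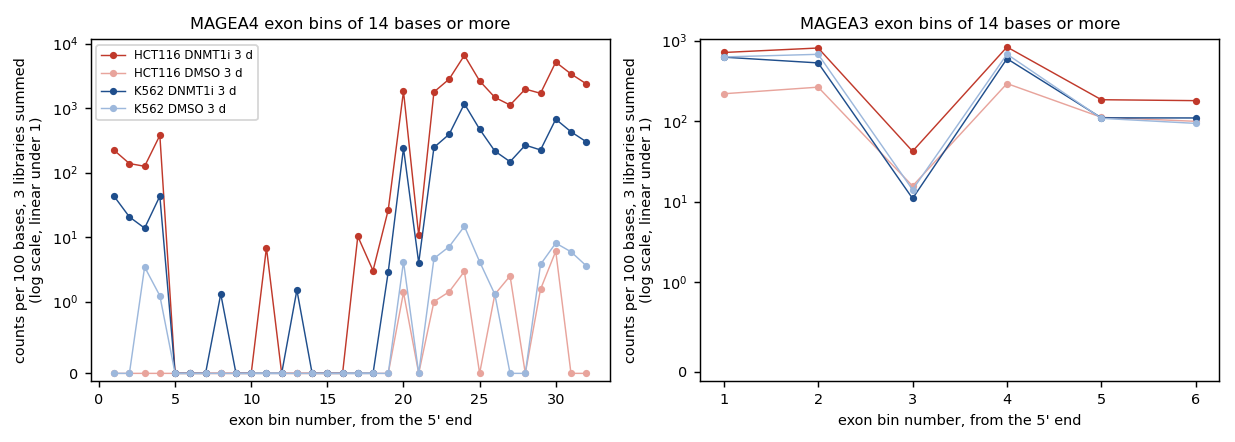
Counts per 100 bases in each exon bin of at least 14 bases (log axis that is linear below 1), summed over 3 libraries, for MAGEA4 and MAGEA3. In MAGEA4 the bins 1 to 4 hold 493 counts in HCT116 given DNMT1i and the alternative bins 5 to 18 hold 22, and in MAGEA3 the HCT116 DMSO line lies lowest in bins 1, 2 and 4.

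Around the 10 genes, 34 other annotated genes start within 100 kb of a member's start. In HCT116, 10 of them passed the filter on low counts, 4 were higher with DNMT1i and 2 lower, and 14 had no read in either group. These counts are near the shares over all genes tested in HCT116, of which 33.8% were higher and 27.9% lower. The 4 were CSAG1, MAGEA3-DT, MAGEA4-AS1 and MAGEB3. CSAG1, another cancer-testis gene, starts 22 bases from MAGEA12 on the other strand and was at 10.1 CPM with DNMT1i and 0.225 CPM with DMSO (log2 fold change 5.36, adjusted p = 5.51e-13). In K562, where MAGEA12 was expressed in DMSO, CSAG1 was at 23.0 CPM with DNMT1i and 25.9 CPM with DMSO. MAGEA4-AS1, which lies antisense to MAGEA4, was at 2.36 CPM with DNMT1i and had no read with DMSO in HCT116, and was the only neighbor of the 8 tested in K562 to be higher (0.953 and 0.111 CPM, adjusted p = 0.00277). How the counting treated strand is unknown, so its reads and those of MAGEA4 cannot be told apart.

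The divergent partners of MAGEA3 and MAGEA6, whose promoters but not whole genes are identical, went opposite ways in HCT116. MAGEA3-DT, starting 67 bases from MAGEA3, was at 1.64 CPM with DNMT1i and 0.038 CPM with DMSO (log2 fold change 5.13, adjusted p = 3.49e-08). MAGEA6-DT, starting 17 bases from MAGEA6, was at 1.95 CPM with DNMT1i and 3.00 CPM with DMSO and fell by 0.73 on the log2 scale (adjusted p = 0.00722). CSAG3, in the same repeat, also fell, by 0.76 (adjusted p = 0.00672). Reads that fit more than 1 place were dropped. How much sequence MAGEA3-DT, MAGEA6-DT and CSAG3 share with other genes was not measured, so their levels are uncertain. Of genes farther off, CETN2 and NSDHL, about 61 kb from MAGEA6, had log2 fold changes of 0.00 and 0.06 (adjusted p = 0.975 and 0.624).

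HT-CTCF cells were measured after 1 day of DNMT1i. Without HaloPROTAC3, 5 of the 10 genes had enough counts to be tested and 3 of them, MAGEA4, MAGEB1 and MAGEC1, were higher, against 1.98% of the 12690 genes tested. These 3 had no read with DMSO and passed the filter on low counts through the DNMT1i libraries, so their count describes them and is not set against that share. MAGEA4 had 2.61, 3.34 and 2.83 CPM with DNMT1i and no read in 3 DMSO libraries, and was at least 14.6-fold higher. MAGEB1 had 3.30, 2.16 and 3.06 CPM with DNMT1i and no read with DMSO, again at least 14.6-fold. MAGEC1 had 3.30, 1.57 and 1.89 CPM and no read, at least 12.2-fold higher. Their adjusted p-values were 5.36e-05, 1.68e-05 and 0.000143.

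MAGEB2 and MAGEA3, which were expressed beforehand, did not pass. MAGEB2 had 159.1, 165.9 and 168.0 CPM with DNMT1i, against 183.1, 176.1 and 167.6 CPM with DMSO (log2 fold change −0.09 ± 0.07, adjusted p = 0.577). MAGEA3 lay between 39.8 and 44.7 CPM with DNMT1i, against 35.0 to 48.4 CPM with DMSO (−0.02 ± 0.12, adjusted p = 0.953).

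The remaining 5 were under the filter on low counts. MAGEC2 had 28 reads over the 3 DNMT1i libraries and none with DMSO, and MAGEA12 had 19 and none. When no filter was applied, both were called (adjusted p = 2.52e-05 for MAGEC2 and 0.00201 for MAGEA12). MAGEA6 had 13 reads with DNMT1i and 3 with DMSO and was not called without the filter (adjusted p = 0.542). MAGEA1 had 2 reads with DNMT1i and 1 with DMSO, and MAGEA10 had none in any of the 12 HT-CTCF libraries, where 3 counts over a group would be 0.119 to 0.198 CPM. MAGEA1 and MAGEA10 were thus not detectable at this depth on day 1, while wild-type HCT116 cells had 36.3 and 22.1 CPM of them on day 3. MAGEA4 was at 2.93 ± 0.374 CPM on day 1 and 376.8 ± 14.3 CPM on day 3. The line, the clone, the time and the depth differ between those experiments, so these values were only set side by side.

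With HaloPROTAC3, 2 of the 5 tested genes, MAGEA4 and MAGEC1, were higher with DNMT1i, against 2.86% of all genes. Both passed the filter on low counts only through DNMT1i libraries, so their count describes them and is not set against that share. MAGEA4 had 1.31, 1.57 and 3.18 CPM with DNMT1i and MAGEC1 3.18, 2.75 and 3.76 CPM, and neither had a read in the DMSO libraries, which puts them at least 17.9-fold and 27.5-fold higher. MAGEB1 had 0.187, 0.590 and 0.289 CPM with DNMT1i, from 6 reads, against 1 read over the DMSO libraries, and did not pass (adjusted p = 0.159). Its ratio was 8.70, with a counting interval of 1.06 to 400.0. MAGEC2 and MAGEA12, under the filter, had 23 and 17 reads with DNMT1i and 1 and 3 with DMSO, and both were called when no filter was applied (adjusted p = 4.09e-05 and 0.0213). In a fit of the 6 HaloPROTAC3 libraries alone, 1 gene was called rather than 2.

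With HaloPROTAC3, compared with no HaloPROTAC3 under DNMT1i, 1 of the 5 genes was lower, MAGEB1, against 22.4% of all genes called in either direction. MAGEB1 passed the filter on low counts only through the DNMT1i libraries without HaloPROTAC3. The count is thus a description and is not set against that share. MAGEB1 had 0.187, 0.590 and 0.289 CPM with HaloPROTAC3, against 3.30, 2.16 and 3.06 CPM without it, with no overlap. The log2 fold change was −2.88 ± 0.53 (adjusted p = 0.000158), from 6 reads with HaloPROTAC3 and 48 without. It ran from −3.35 to −2.62 when each library in turn was left out, with adjusted p-values of at most 0.00273. DESeq2 gave a like value, −2.93 ± 0.87, with no adjusted p because of the low counts. MAGEA4 had 37 reads with HaloPROTAC3 and 48 without (log2 fold change −0.35 ± 0.38, adjusted p = 0.555) and MAGEC1 57 and 40 (0.56 ± 0.35, adjusted p = 0.274). MAGEB2, the neighbor of MAGEB1, had 166.9 ± 7.99 CPM with HaloPROTAC3 and 164.4 ± 4.66 CPM without (adjusted p = 0.235).

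Whether the DNMT1i response itself depended on HaloPROTAC3 was tested as an interaction, in which edgeR called 0 members, against 0.268% of all genes. MAGEA4 and MAGEC1 had no read in either DMSO group. They passed the filter on low counts only through the DNMT1i groups, so they could not be called. MAGEA3, MAGEB1 and MAGEB2 were left for this test, and MAGEB1 passed that filter only through the DNMT1i group without HaloPROTAC3. At an unadjusted p below 0.05 there was 1 by edgeR, MAGEB2, whose interaction was 0.22 ± 0.10 (adjusted p = 0.31), and DESeq2 called 0 at adjusted p below 0.05, having given no adjusted p to 8 of its 9 members. For MAGEB1 the interaction was −4.46 ± 2.47 (adjusted p = 0.425), with 1 read in 6 DMSO libraries behind it. In DMSO, HaloPROTAC3 against none could be tested for MAGEB2 and MAGEA3 only, since MAGEA4 and MAGEC1 had no read in either group and MAGEB1 had 1 with HaloPROTAC3 and 0 without. Neither was called by edgeR (17.3% of all genes were), with 0 members at an unadjusted p below 0.05. DESeq2 called 0 and gave 5 of 9 members no adjusted p. MAGEB2 was at 156.4 ± 3.90 CPM with HaloPROTAC3 and 175.6 ± 7.76 CPM without (log2 fold change −0.10 ± 0.07, adjusted p = 0.354). HaloPROTAC3 acts on CTCF protein, which these libraries do not measure. The CTCF transcript was higher with HaloPROTAC3, at 211.3 ± 2.42 CPM against 133.4 ± 3.92 CPM in DMSO (adjusted p = 1.77e-09).

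**Figure D4:**
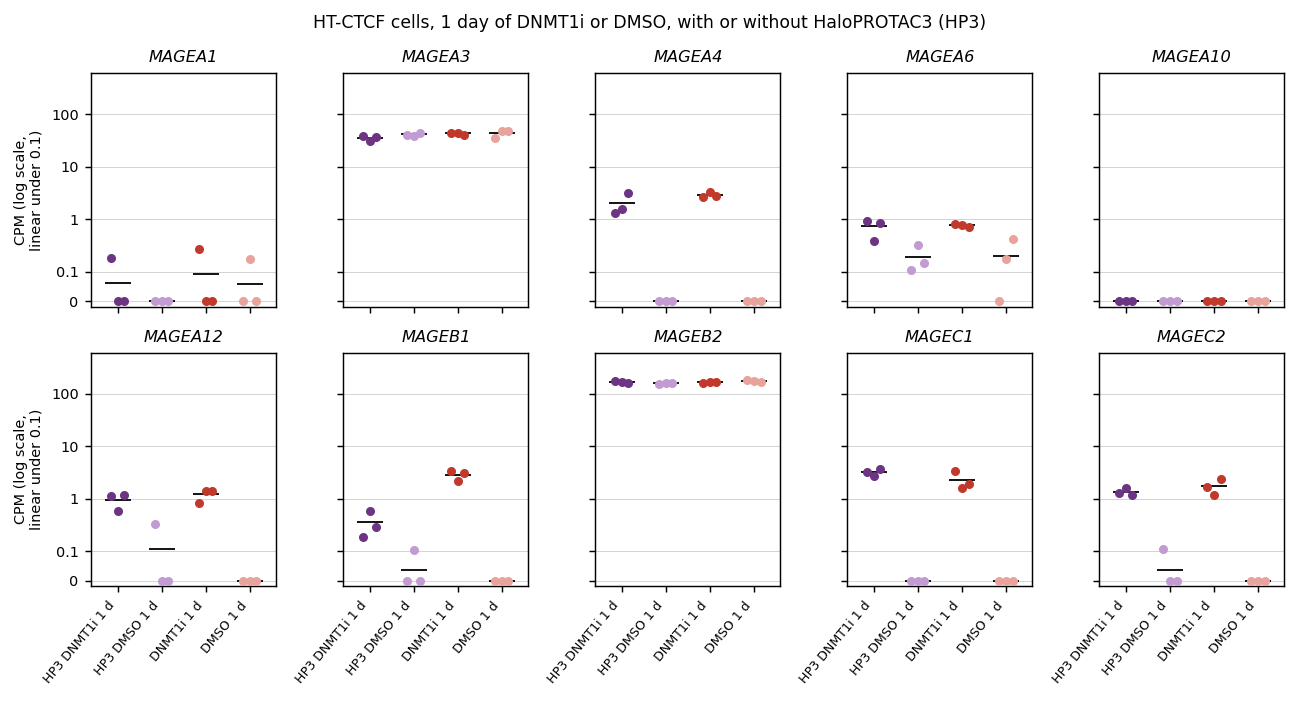
CPM of each gene in HT-CTCF cells after 1 day (points are libraries, bars are means of 3, log axis that is linear below 0.1; HP3 is HaloPROTAC3). MAGEA4 and MAGEC1 rise with DNMT1i whether or not HaloPROTAC3 is present, while MAGEB1 lies between 0.187 and 0.590 CPM with it and between 2.16 and 3.30 CPM without it.

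After 6 hr of dTAG-13 in K562dTAG cells, 8 of the 10 genes were tested and 0 were called in either direction by edgeR, against 4.67% of the 14104 genes tested, with 0 at an unadjusted p below 0.05 and 0 by DESeq2. The log2 fold changes ran between −0.11 for MAGEA12 and 0.12 for MAGEA3. MAGEA12 had 82.4, 81.6 and 79.5 CPM with dTAG-13, against 88.7, 88.7 and 86.0 CPM with DMSO (−0.11 ± 0.06, adjusted p = 0.337).

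The K562dTAG line, on the other hand, differed from wild-type K562 cells in MAGE levels, and MAGEC1 and MAGEC2 were active in it besides the genes active in both. MAGEC1 was at 66.8, 71.8 and 69.5 CPM in K562dTAG cells with DMSO, against 0.908, 0.996 and 0.963 CPM in wild-type K562 cells with DMSO. MAGEC2 was at 61.2, 67.8 and 63.4 CPM, against 0.621, 0.645 and 0.602 CPM. Both are thus on in the knock-in line and near silent in the wild-type line. MAGEA1 (60.9 ± 0.150 CPM in K562dTAG, 17.8 ± 1.44 in K562), MAGEA3 (70.5 ± 8.21 and 30.5 ± 5.35), MAGEA6 (55.2 ± 4.82 and 22.8 ± 1.73) and MAGEA12 (87.8 ± 1.57 and 36.9 ± 2.47) were also at higher levels in K562dTAG. MAGEB1 (13.6 ± 0.867 and 30.3 ± 1.20) and MAGEB2 (26.2 ± 1.30 and 55.9 ± 3.53) were at lower levels. MAGEA4 had no read in the 3 K562dTAG DMSO libraries and 48 in the 3 K562 ones, and MAGEA10 had 5 and 8. The ranges did not overlap for any of these genes except MAGEA10. The comparison was not part of the design and was not tested, and clone, tag, and time in DMSO cannot be told apart.

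**Figure D5:**
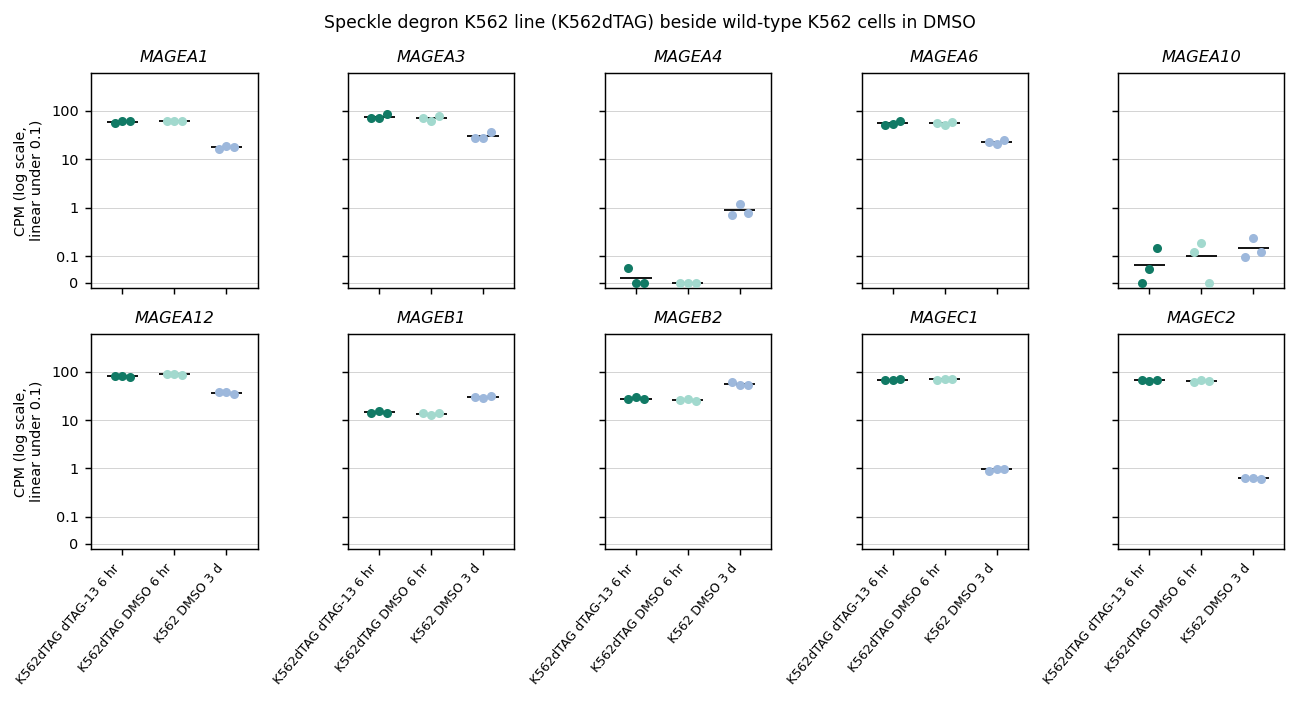
CPM of each gene in K562dTAG cells after 6 hr of dTAG-13 or DMSO, beside wild-type K562 cells after 3 days of DMSO (points are libraries, bars are means of 3, log axis that is linear below 0.1). dTAG-13 and DMSO libraries overlap for each gene but MAGEA12 (79.5 to 82.4 against 86.0 to 88.7 CPM), while MAGEC1 (69.4 and 0.956 CPM) and MAGEC2 (64.1 and 0.623 CPM) differ widely between the DMSO groups of the 2 lines.

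Across the 30 libraries, which are 10 groups of 3 and share lines and treatments, log2(CPM + 1) moved most closely for MAGEA6 and MAGEA12 (Pearson r = 0.995), MAGEA1 and MAGEA6 (0.991) and MAGEC1 and MAGEC2 (0.989). MAGEA4 and MAGEA10, the pair that rose with DNMT1i in both wild-type lines, had r = 0.920. MAGEB2 and MAGEA6 had a negative r (−0.70). In DMSO, MAGEB2 was higher in HCT116 than in K562 and MAGEA6 was lower, while both were higher with DNMT1i in wild-type HCT116 cells. Among 15823 other genes, those most like MAGEB2, the gene of highest mean level, were ITSN1 (r = 0.983), SLC41A1, ADAM9, FNBP1L and TJP1 (0.981). Those most like the mean of all 10 were ZNF140 (r = 0.970), SVEP1, SLC17A7, PDLIM4 and ZNF702P (0.957).

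Of 17 other type I MAGE genes listed, 8 passed the filter in HCT116 and all 8 were higher with DNMT1i (median log2 fold change 9.62, beside 0.02 over all genes). MAGEB10 was at 28.5 ± 1.79 CPM with DNMT1i and 0.056 ± 0.098 CPM with DMSO. MAGEA8 and MAGEA11 had no read with DMSO and were at 16.8 ± 1.13 and 15.1 ± 1.65 CPM with DNMT1i, at least 302-fold and 274-fold higher. In K562, 5 passed and 4 were higher (median 3.73, beside 0.00 over all genes), MAGEA8, MAGEA9B, MAGEB10 and MAGEB17. Over all genes tested, 33.8% were higher in HCT116 and 6.47% in K562. MAGEA9B, at 4.29 ± 0.642 CPM with DNMT1i and 0.305 ± 0.109 CPM with DMSO, has a close copy and is uncertain. In DMSO, MAGEB16 was at 40.6 ± 1.17 CPM in K562 and had no read in HCT116.

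Of 71 other X-linked cancer-testis genes found in the tables, 26 were tested in HCT116. Of these, 25 were higher and 1 lower (median log2 fold change 7.81), beside 33.8% and 27.9% over all genes. In K562, 17 were tested and 9 were higher (median 0.72), beside 6.47% over all genes. TKTL1, a transketolase-like gene, was at 1598 ± 48.5 CPM with DNMT1i and 1.24 ± 0.083 CPM with DMSO in HCT116, and at 40.9 ± 3.62 and 1.68 ± 0.277 CPM in K562. In HT-CTCF cells TKTL1 was at 20.6 ± 1.86 CPM after 1 day of DNMT1i and had no read with DMSO. With HaloPROTAC3 it was at 16.6 ± 1.52 CPM with DNMT1i and 0.087 ± 0.078 CPM with DMSO.

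Of 11 type II MAGE genes, 7 were tested in HCT116. With DNMT1i, 6 were higher and 1, MAGED1, was lower (median log2 fold change 0.67), beside 33.8% and 27.9% over all genes. MAGED2 was at 47.7 ± 3.83 CPM with DNMT1i and 27.9 ± 3.37 CPM with DMSO. NDN, an imprinted gene, had 1.63 ± 0.095 CPM with DNMT1i and no read with DMSO, at least 29.2-fold higher. In K562, MAGED2 was at 42.4 ± 5.77 CPM with DNMT1i and 43.6 ± 2.23 CPM with DMSO (adjusted p = 0.712).

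Of 9 ligase partners and targets of MAGE proteins, 8 were tested in HCT116, of which 2 were higher and 4 lower with DNMT1i (median log2 fold change −0.28), beside 33.8% higher and 27.9% lower over all genes. NSMCE1, a ligase subunit of the SMC5/6 complex, was at 38.9 ± 1.55 CPM with DNMT1i and 80.7 ± 2.85 CPM with DMSO (adjusted p = 7.94e-11). The ligase PJA1 was at 47.3 ± 2.95 CPM with DNMT1i and 21.4 ± 1.65 CPM with DMSO and was higher (adjusted p = 6.63e-09). In K562, NSMCE1 was at 58.0 ± 3.57 and 62.7 ± 4.09 CPM (adjusted p = 0.409).

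Of 14 regulators of MAGE promoters, 4 were higher and 5 lower with DNMT1i in HCT116 (median log2 fold change −0.07), close to the 33.8% and 27.9% over all genes. CTCFL, the germ cell paralog of CTCF that has been linked to cancer-testis gene activation, was at 90.7 ± 2.94 CPM with DNMT1i and 0.668 ± 0.071 CPM with DMSO (log2 fold change 6.96 ± 0.14, adjusted p = 5.47e-19). In K562 cells in DMSO, where 6 of the MAGE genes had between 17.8 and 55.9 CPM, CTCFL was at 577.5 ± 2.23 CPM. MAGEA4, MAGEA10, MAGEC1 and MAGEC2 were at most 0.956 CPM there. With DNMT1i in K562, where MAGEA4 and MAGEA10 rose, CTCFL was at 527.5 ± 16.1 CPM (edgeR adjusted p = 0.194). In K562dTAG cells in DMSO CTCFL was at 342.6 ± 9.60 CPM. There MAGEA1, MAGEA3, MAGEA6, MAGEA12, MAGEC1 and MAGEC2 were at higher levels than in K562, and MAGEA4, MAGEB1 and MAGEB2 at lower ones. A link between CTCFL and these genes was not tested. In HT-CTCF cells without HaloPROTAC3, CTCFL was at 3.71 ± 0.928 CPM with DNMT1i and had no read with DMSO. ETS1, of the ETS family, was at 68.4 ± 4.78 CPM with DNMT1i and 23.0 ± 1.65 CPM with DMSO in HCT116 (adjusted p = 4.6e-11), and had 1 read in 3 K562 DMSO libraries. HELLS, a chromatin remodeler needed for DNA methylation, was at 50.9 ± 4.12 CPM with DNMT1i and 83.0 ± 3.71 CPM with DMSO. In K562, 1 regulator was higher, MBD1, and 1 lower, CTCF, at 89.4 ± 2.44 CPM with DNMT1i and 110.9 ± 8.76 CPM with DMSO (adjusted p = 0.0498).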

How the data were processed

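Poly(A)-selected RNA was sequenced from 30 cultures in 10 groups of 3, named by the sample labels. By the methods of the study, with versions from the submitters' processing notes, UMIs were handled with UMI-tools 1.1.1, adapters trimmed with cutadapt 2.7 and reads aligned with STAR 2.6.0 to hg38, and the authors counted reads per gene and per exon bin with HTSeq. The deposited values used are these raw counts, without normalization. Reads with several alignments (8.52% to 16.9% of each library) were not counted, and all reads outside a single gene (17.1% to 23.6%) were left out of library sizes. The HT-CTCF libraries had longer reads than the others. No strand setting was found (not given in the sources used here). Other deposited values, the positions of exon bins, came from an exon usage table of the authors. Tables of the authors' comparisons hold fold changes and p-values, which were not used, nor were 18 columns of per-sample values in them.

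Counts were tested with edgeR 4.0.16 in R 4.3.3 (quasi-likelihood F test, TMM, filterByExpr) over all genes, and p-values were adjusted by the Benjamini-Hochberg method at 0.05. Each wild-type and K562dTAG comparison was fitted on its 6 libraries, the HT-CTCF groups together, and line contrasts on the 12 wild-type libraries. The fit was tested on simulated data. Where a group had no read, the fold is a bound against 3 counts over the group, and with 1 to 3 reads a ratio with a 95% exact interval, which covers counting error only. No pair of libraries was a duplicate (chi-square per degree of freedom at least 1.74). The 10 genes are reported in every comparison. Of each list up to 4 called genes of smallest p per comparison were open to naming, and the text gives those it discusses; MAGED1 in HCT116, and MAGED2 and NSMCE1 in K562, fell outside that rule and were named after their values were seen. Neighbors start within 100 kb (100000 bases), and like genes are the 5 of highest r. The members and lists were chosen with earlier results of these data known. Symbols came from GENCODE 44 (99.7% of identifiers matched), sequences from RefSeq. Alternatives were DESeq2 1.42.0, RLE scaling, no filter, other fits, a replicate block and leaving out each library.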

Additional observations from a re-analysis of the deposited data

Results flagged for a closer look

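The DNMT1i response of 9 genes differed between HCT116 and K562 cells by a test of the difference itself (edgeR, 12 wild-type libraries, 3 in each group). The difference of log2 responses, HCT116 minus K562, was 10.19 ± 0.66 for MAGEC1, 9.72 ± 0.31 for MAGEA1, 8.46 ± 0.28 for MAGEA12, 7.99 ± 0.63 for MAGEC2, 7.15 ± 0.20 for MAGEB1, 6.29 ± 0.28 for MAGEA6, 4.59 ± 0.35 for MAGEA4, 0.82 ± 0.11 for MAGEB2 and 0.72 ± 0.18 for MAGEA3 (SE). Their adjusted p-values ran from 2.55e-15 for MAGEB1 to 0.0047 for MAGEA3. For MAGEC1 the HCT116 DMSO libraries had no read, so its value depends on the prior count of the fit. MAGEC2 had a single read there, in the third replicate, and its difference was 9.94 without that library, beside 7.53 to 8.19 without any other. MAGEA12 ran between 7.90 and 9.09 when HCT116 DMSO libraries were left out. MAGEC2 and MAGEC1 were at most 1.66 CPM in every wild-type K562 library. MAGEA1, MAGEA6, MAGEA12 and MAGEB1 had DMSO levels of 17.8 to 36.9 CPM in K562, beside at most 0.431 CPM in HCT116.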

How the results depend on the processing

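Of 844 log2 fold changes of single members with an adjusted p under other settings, 839 kept their direction if called and their side of the threshold. Of the rest, 5 passed it newly and none lost it. Members that fell under the filter or had no adjusted p in a setting are not among the 844, so calls lost that way are not counted there. The counts of members called were the same in every setting for HCT116 (10), dTAG-13 (0), HaloPROTAC3 in DMSO (0), the interaction (0) and the line difference (9). In HT-CTCF cells without HaloPROTAC3, 5 rather than 3 were higher by DESeq2 and 5 with no filter on low counts. With HaloPROTAC3, 4 rather than 2 were higher with no filter, 1 in the fit of its 6 libraries, where MAGEA4 fell under the filter, and 0 by DESeq2, which gave 7 of 9 members no adjusted p. MAGEB1, called lower with HaloPROTAC3 under DNMT1i, likewise had no adjusted p there, so DESeq2 called 0. Leaving out each library gave 2 to 4 higher in K562 (without the third DMSO replicate 4 were higher, with MAGEB2 and MAGEC2 added, and MAGEA12 was lower), 10 in HCT116, 3 and 2 in HT-CTCF cells without and with HaloPROTAC3, 0 and 1 for HaloPROTAC3 in DMSO and under DNMT1i, 9 for the line difference and 8 to 9 for the lines in DMSO, where MAGEA10 passed without the first K562 replicate. The cause of these changes was not tested beyond the filters named.

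With the replicate number as a block, every count of members was as without it: 2 in K562, 10 in HCT116, 0 with dTAG-13, and 3 and 2 in HT-CTCF cells. Same-numbered libraries of the treated and control groups correlated at −0.210 to 0.211 in K562 and at 0.084 to 0.401 in K562dTAG cells. Differently numbered ones correlated at −0.331 to 0.249 in K562dTAG cells. The numbers were not taken as pairs, though for K562dTAG cells these values do not settle whether they are. Over all genes, the block gave 1175 higher and 1886 lower with dTAG-13, against 222 and 436, and 162 lower in K562, against 326. The fit of 12 libraries gave 1350 higher and 627 lower in K562, against 888 and 326, and no filter 1391 and 508. No filter gave 524 higher with dTAG-13, and 24 higher and 141 lower for the interaction, against 7 and 27, and DESeq2 60 and 81. Leaving out libraries gave 632 to 1941 higher and 124 to 1499 lower in K562, 46 to 301 and 132 to 768 with dTAG-13, 138 to 336 and 20 to 119 in HT-CTCF without HaloPROTAC3, 154 to 318 and 109 to 325 with it, and 0 to 72 and 0 to 166 for the interaction. Counts in the lists named in the report did not move by over 1.5 times in HCT116, while those of 2 promoter regulators in K562 ran from 1 to 5. Depth limits the HT-CTCF results, where 5 of the 10 genes had too few counts to be tested.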
